A study of Mus musculus with 4 samples.

Results

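Lysosomes are the acidic compartments in which macrophages break down what they take up. Soluble hydrolases cut proteins, sugars and lipids there, heavily glycosylated membrane proteins line the compartment, and the vacuolar proton pump acidifies its lumen: the cytosolic V1 sector of the pump burns ATP and turns a rotor, and the membrane-bound V0 sector carries the protons across. Many of these genes belong to a network controlled by TFEB and related factors of the MiT family, which bind a palindromic promoter element named CLEAR.

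Of a list of 37 genes for lysosomal hydrolases, membrane proteins and proton pump subunits, 33 could be measured, among 10335 genes and unnamed probes tested in all. The list was fixed by gene name, with cathepsins left out. A probe was kept when its detection p-value was under 0.01 on at least 2 of the 4 arrays, and the kept probe with the highest mean signal stood for a gene. Cd68, Atp6v0c and Atp6v1f had no probe under those symbols in the annotation used and were not analysed here. The single probe of Atp6v0d2, an alternative d subunit of the pump known from osteoclasts and macrophages, was not above background on any array.

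Peritoneal macrophages of CD13 knockout mice (2 arrays, KO 1 and KO 2) were set against those of wild type mice (2 arrays, WT 1 and WT 2), all of the C57BL/6 strain per the labels, with no treatment named. CD13 is the surface aminopeptidase encoded by Anpep. The labels give neither age nor sex, nor the number of animals behind an array, so the p-values here rest on the spread between arrays alone, and that spread may be technical. The series text also mentions bone marrow derived macrophages without assigning arrays to them.

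Anpep, the targeted gene, had log2 intensities of 11.12 and 11.03 on the knockout arrays, against 13.58 and 13.40 on the wild type arrays (limma adjusted p = 0.0261). Between 13659 and 14823 probes per array were above background, the fewest on KO 2. All 7 macrophage markers (Adgre1, Csf1r, Cd14, Mertk, Lyz2, Fcgr1 and Itgam) were above background on all 4 arrays. In 5 of the 7 (71.4%) both knockout values lay below both wild type values, against 19.1% of all genes tested. Mertk and Fcgr1 overlapped between the groups and had higher means in the knockout (log2 changes 0.27 ± 0.21 and 0.36 ± 0.36). Itgam, the integrin CD11b, had log2 intensities of 8.53 and 8.54 in knockout and 9.96 and 10.29 in wild type macrophages, and did not pass (limma adjusted p = 0.145). Adgre1 and Csf1r had log2 changes of -0.51 ± 0.20 and -0.40 ± 0.17. Cells of other kinds cannot be counted in such bulk samples, where fewer cells of a type and less RNA per cell cannot be told apart.

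The promoters of these genes were searched for the element that MiT factors bind, in windows of 250 bases before to 50 bases after the annotated start (RefSeq, GRCm38.p6), which were at hand for 31 of the 37 genes. Of the 3 motifs searched, the longest was the full CLEAR element, which is TCACGTGA with a G before it and a C after it. The others were that core itself and CACGTG, the E-box inside it. Each reads the same on either strand, and every match of a longer motif is also a match of the shorter ones. Only exact matches were counted, so a site that differs by any letter is not among them. An exact match of the full element was found in 0 of the 31 genes, against 0.37% of all 27025 genes with a window (0.326% of all 32851 windows). The core was found in 5 of the 31 genes (16.1%), against 1.12% of all genes with a window (0.974% of all windows). The E-box was found in 11 of the 31 genes (35.5%), against 8.09% of all genes with a window (7.15% of all windows). The 30 bases around each match of the core are printed so that the letters flanking the core can be compared among subunits of the pump, a channel and a hydrolase. The core is in capitals, and each line reads the strand of the gene 5′ to 3′. Gla has 2 matches in its window.
Atp6v0d1 (chr8:105566050-105566079, minus strand, core 4 bases before the start): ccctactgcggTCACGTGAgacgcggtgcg
Atp6v0e (chr17:26676387-26676416, plus strand, core at base 3 of the transcript): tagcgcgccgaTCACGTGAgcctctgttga
Atp6v1a (chr16:44139373-44139402, minus strand, core 132 bases before the start): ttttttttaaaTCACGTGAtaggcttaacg
Gla (chrX:134601215-134601244, minus strand, core 228 bases before the start): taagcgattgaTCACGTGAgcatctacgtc
Gla (chrX:134601182-134601211, minus strand, core 195 bases before the start): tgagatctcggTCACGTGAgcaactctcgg
Mcoln1 (chr8:3500462-3500491, plus strand, core 46 bases before the start): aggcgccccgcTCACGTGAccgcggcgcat
A match is a description of the letters in these windows, and nothing was measured here of the binding of any factor.

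None of the 33 lysosomal genes passed the limma test at an adjusted p under 0.05, where 0.0968% of everything tested passed (0.0484% higher and 0.0484% lower in the knockout). Their limma adjusted p-values lay between 0.469 and 0.996. At an unadjusted p under 0.05 there was 1 of 33 (3.03%), namely Acp5, where 9.35% of all genes tested were below it (4.25% higher and 5.1% lower in the knockout). Of the 2602 genes tested with a mean log2 intensity over 11, 4.07% were below it. Acp5 was kept only through the knockout arrays, where it was higher. With only probes above background on all 4 arrays, there were 0 of 32 lysosomal genes, beside 9.42% of all genes then tested. In 29 of the 33 genes the groups differed by less than 0.25 on the log2 scale (87.9%), against 62.7% of all genes tested and 76.8% of the bright ones. With arrays aligned by their median probe, that count was 20 over all probes, beside 34.9% of all genes tested. Over the kept probes it was also 20 of the 33, a share near the 61.3% of all genes tested. Without WT 1 it was 21, beside 53.4%. The median absolute change was 0.09, against 0.18 over all genes tested and 0.14 over the bright ones. The median absolute gap between the arrays of one group was 0.15 for the knockout and 0.12 for the wild type, both larger than the median change between the groups. The same order held over all genes tested, with gaps of 0.24 and 0.21 beside a change of 0.18. It also held over the bright ones, with 0.18 and 0.16 beside 0.14.

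The precision of 2 arrays per group sets what these data bound. The moderated 95% interval of the log2 change stayed within -1 and 1, a doubling or a halving, for 31 of the 33 genes (93.9%), against 78.3% of all genes tested and 92.4% of the bright ones, a share close to that of the lysosomal genes. Acp5 and Glb1 were the exceptions. These intervals are not a limit of detection, as Itgam did not pass with a log2 change of -1.59. A p above the threshold thus does not show equal levels.

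**Figure D1:**
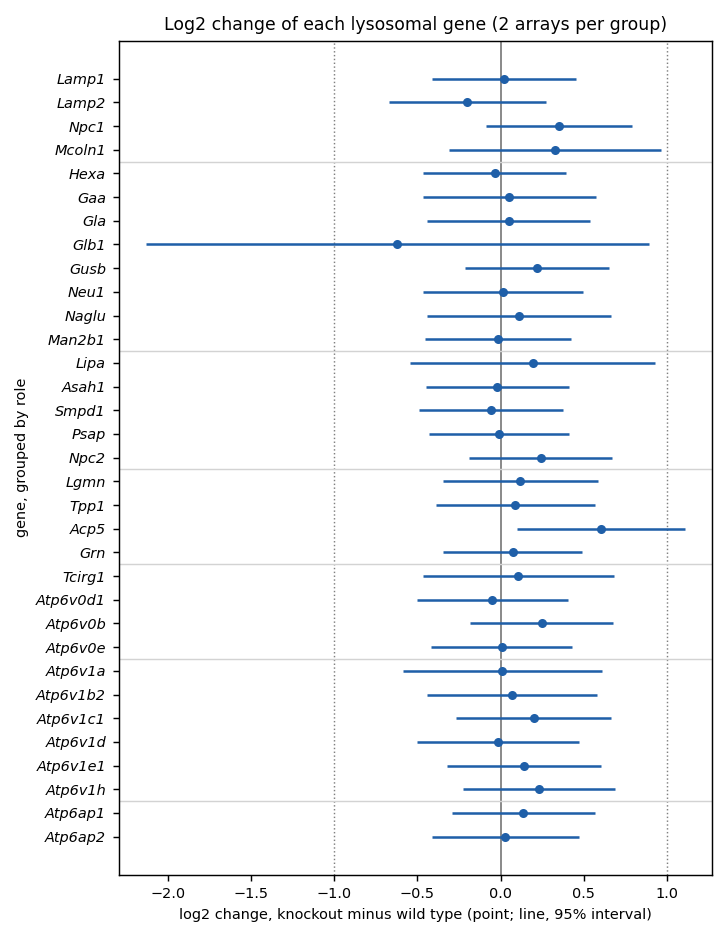
Log2 change of each of the 33 lysosomal genes between CD13 knockout and wild type macrophages (points) with its moderated 95% interval (lines, 2 arrays per group), grouped by role from membrane proteins at the top to pump accessory proteins at the bottom. The intervals of 31 genes stay between the dotted lines at -1 and 1, and those of Glb1 and Acp5 cross them.

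More genes had a higher than a lower mean in the knockout, 24 against 9, or 72.7% higher against 51.7% of all genes tested. With the arrays aligned by their median probe instead, all probes included, this direction flipped to 2 higher and 31 lower. That scaling also moved the median of all genes to -0.33. The counts were 30 and 3 with such an alignment over the kept probes, 20 and 13 with cyclic loess, and 19 and 14 without WT 2. The median log2 change of the lysosomal genes was 0.07 beside 0.01 for all genes tested, and with alignment over all probes -0.23 beside -0.33. In 9 genes (27.3%) both knockout values lay above both wild type values, and in 0 genes below them. Of all genes tested, 39.9% had such non-overlapping groups, 20.8% above and 19.1% below. In 8 of the 9 genes (Npc1, Gusb, Npc2, Acp5, Grn, Atp6v0b, Atp6v1h and Atp6ap1) the difference between the means was also larger than the gap between the arrays of either group. These 8 of 33 (24.2%) stand beside 27.1% of all genes tested and 26.4% of the bright ones. The 5 genes whose promoter holds the CLEAR core had a median log2 change of 0.01, and the measured genes with a promoter window and no core had one of 0.07.

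**Figure D2:**
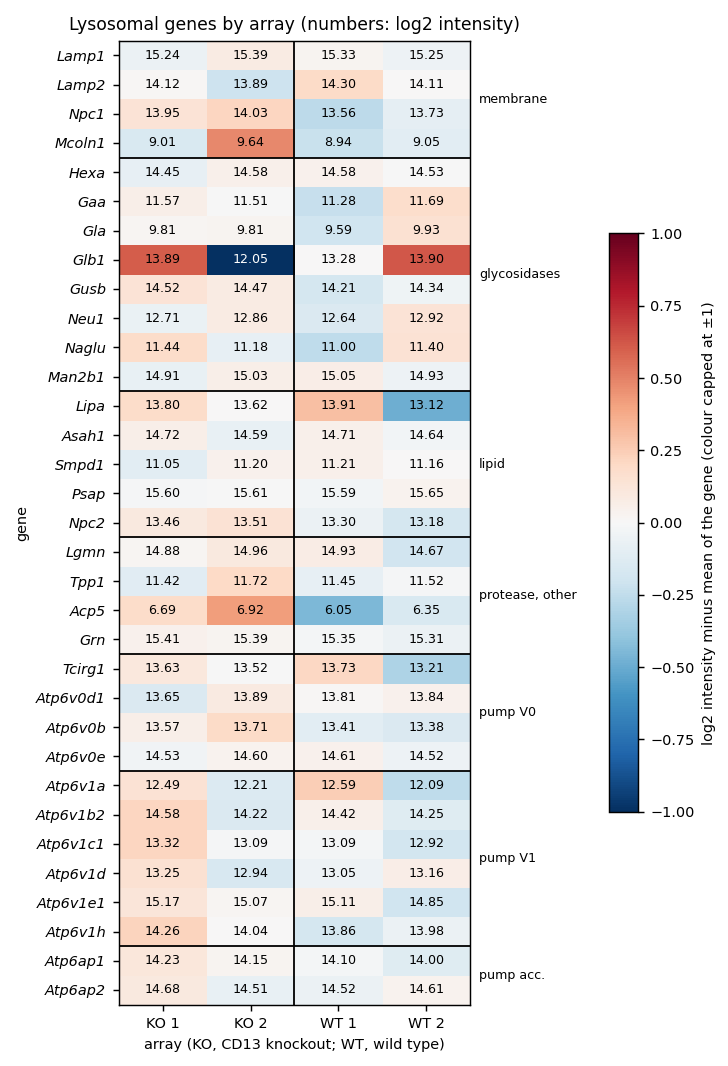
Log2 intensity of each lysosomal gene (rows, grouped by role) on the 4 arrays (columns, knockout left of wild type), with colour for the distance from the mean of that gene. Most rows are pale, and the single dark cell is Glb1 on KO 2, at 12.05 against 13.28 to 13.90 on the other 3 arrays.

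Among the membrane proteins, Lamp1 and Lamp2 form the glycosylated lining of the lysosome. Lamp1 had log2 intensities of 15.24 and 15.39 in knockout macrophages and 15.33 and 15.25 in wild type macrophages, a log2 change of 0.02 ± 0.17 (SE, n = 2 each). Lamp2 had 14.12 and 13.89 in knockout and 14.30 and 14.11 in wild type macrophages, with a log2 change of -0.20 ± 0.19 (SE, n = 2 each). KO 1 and WT 2 nearly coincided for both genes, and the groups overlapped. Npc1 carries cholesterol out of the lysosome through its membrane. It had log2 intensities of 13.95 and 14.03 in knockout and 13.56 and 13.73 in wild type macrophages, without overlap, and a log2 change of 0.35 ± 0.18 (limma adjusted p = 0.633). Mcoln1, the calcium-releasing channel mucolipin 1, had 9.01 and 9.64 in knockout and 8.94 and 9.05 in wild type macrophages. Its log2 change of 0.33 ± 0.26 came mainly from KO 2 and was 0.01 without that array.

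The glycosidases remove sugars from glycoproteins, glycolipids and glycogen. Hexa, the alpha chain of beta-hexosaminidase, had log2 intensities of 14.45 and 14.58 in knockout and 14.58 and 14.53 in wild type macrophages (log2 change -0.04 ± 0.17). Gaa, which degrades glycogen, had 11.57 and 11.51 in knockout and 11.28 and 11.69 in wild type macrophages (log2 change 0.05 ± 0.21). Gla, alpha-galactosidase A, had 9.81 on both knockout arrays and 9.59 and 9.93 in wild type macrophages (log2 change 0.05 ± 0.20). In these 3 genes the groups overlapped, and the log2 changes lay between -0.04 and 0.05. Neu1, the sialidase that removes terminal sialic acid, had 12.71 and 12.86 in knockout and 12.64 and 12.92 in wild type macrophages (log2 change 0.01 ± 0.19). Naglu, which acts on heparan sulfate, had 11.44 and 11.18 in knockout and 10.999 and 11.40 in wild type macrophages (log2 change 0.11 ± 0.22). Man2b1, the acid alpha-mannosidase, had 14.91 and 15.03 in knockout and 15.05 and 14.93 in wild type macrophages (log2 change -0.02 ± 0.18). The groups overlapped for all 3. Gusb, beta-glucuronidase, had 14.52 and 14.47 in knockout and 14.21 and 14.34 in wild type macrophages, the only glycosidase without overlap, with a log2 change of 0.22 ± 0.17.

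Glb1, the beta-galactosidase that cleaves terminal galactose from gangliosides and glycoproteins, varied most between arrays. Its log2 intensity was 13.89 on KO 1 and 12.05 on KO 2, against 13.28 on WT 1 and 13.90 on WT 2. KO 2 stood apart from the other 3 arrays, while KO 1 and WT 2 were nearly equal. The non-normalized signals were 13806 and 3061 in knockout and 13824 and 15726 in wild type macrophages, so the low value was present before normalization. The log2 change was -0.62 ± 0.61 (SE, n = 2 each) with a 95% interval of -2.13 to 0.89, and it was 0.30 without KO 2 and -1.54 without KO 1. A dim second probe of Glb1, annotated to another transcript record, had log2 intensities of 6.71 and 6.51 in knockout and 6.74 and 7.51 in wild type macrophages. In the knockout that probe was above background on 1 of the 2 arrays, so no order of the arrays is read from it.

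The lipid-handling genes showed the same closeness. Lipa, the acid lipase that frees cholesterol and fatty acids from lipoproteins, had log2 intensities of 13.80 and 13.62 in knockout and 13.91 and 13.12 in wild type macrophages (log2 change 0.19 ± 0.30). Asah1, acid ceramidase, had 14.72 and 14.59 in knockout and 14.71 and 14.64 in wild type macrophages (log2 change -0.02 ± 0.17). Psap, the precursor of the saposins that present lipids to hydrolases, had 15.60 and 15.61 in knockout and 15.59 and 15.65 in wild type macrophages (log2 change -0.01 ± 0.17). The wild type arrays differed from each other by 0.79 for Lipa, more than any pair of arrays differed for Asah1 or Psap. Psap was read near the top of the signal range, and quantile normalization gives the brightest probes of each array nearly the same values. Its log2 change was 0.16 with cyclic loess and 0.31 with arrays aligned by the median of the kept probes. Lamp1 and Grn, also read near the top, gave 0.28 and 0.33 under that alignment. Smpd1, acid sphingomyelinase, lies on chromosome 7 as does Anpep. It had 11.05 and 11.20 in knockout and 11.21 and 11.16 in wild type macrophages, a log2 change of -0.06 ± 0.17. Npc2, which hands cholesterol to Npc1, had 13.46 and 13.51 in knockout and 13.30 and 13.18 in wild type macrophages. Npc2 did not overlap between the groups and had a log2 change of 0.24 ± 0.17, in the same direction as Npc1.

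Acp5 encodes tartrate-resistant acid phosphatase, an enzyme of osteoclasts and activated macrophages. Its log2 intensity was 6.69 and 6.92 in knockout and 6.05 and 6.35 in wild type macrophages, so that both knockout values were higher. The log2 change was 0.60 ± 0.20 (SE, n = 2 each), with a limma unadjusted p of 0.0270 and a limma adjusted p of 0.469. The probe was dim: it was above background on both knockout arrays and on 1 of the wild type arrays. Acp5 was thus kept and tested only through the knockout arrays, where it was higher, so no difference is concluded from it. With the authors' normalized values, which carry no background correction of this kind, the log2 change was 0.27. Of the osteoclast markers, Calcr, Ocstamp, Oscar and Itgb3 were not above background on any array, and the summed normalized intensity of the 3 measured (Ctsk, Dcstamp and Mmp9) was 21300 and 29540 on the knockout arrays, against 18970 and 11050 on the wild type arrays. Most of that sum was Ctsk, a cathepsin that macrophages also express. Dcstamp went the other way (log2 change -0.26 ± 0.24) and Mmp9 gave 0.10 ± 0.24, both with overlapping groups. The part of these markers in the value of Acp5 was not tested.

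The remaining soluble proteins did not separate the groups by more than a small margin. Lgmn, the asparaginyl endopeptidase legumain, had log2 intensities of 14.88 and 14.96 in knockout and 14.93 and 14.67 in wild type macrophages (log2 change 0.12 ± 0.19). Tpp1, which removes tripeptides from protein ends and also lies on chromosome 7, had 11.42 and 11.72 in knockout and 11.45 and 11.52 in wild type macrophages (log2 change 0.09 ± 0.19). Grn, progranulin, had 15.41 and 15.39 in knockout and 15.35 and 15.31 in wild type macrophages. Only Grn did not overlap, and its log2 change was 0.07 ± 0.17.

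The V0 sector of the proton pump was represented by 4 of its 6 listed genes. Tcirg1, the a3 subunit through which protons pass, had log2 intensities of 13.63 and 13.52 in knockout and 13.73 and 13.21 in wild type macrophages (log2 change 0.11 ± 0.23). Atp6v0d1, the d1 subunit that couples V0 to the rotor, had 13.65 and 13.89 in knockout and 13.81 and 13.84 in wild type macrophages (log2 change -0.05 ± 0.18). Atp6v0e, a small membrane subunit, had 14.53 and 14.60 in knockout and 14.61 and 14.52 in wild type macrophages (log2 change 0.01 ± 0.17). These 3 overlapped between the groups, with log2 changes between -0.05 and 0.11. Atp6v0b, a proteolipid of the proton-carrying ring, had 13.57 and 13.71 in knockout and 13.41 and 13.38 in wild type macrophages. Both of its knockout values were higher, and its log2 change was 0.25 ± 0.17.

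The V1 sector was represented by 6 of its 7 listed genes. Atp6v1a, the catalytic subunit, had log2 intensities of 12.49 and 12.21 in knockout and 12.59 and 12.09 in wild type macrophages. Atp6v1b2, its partner in the ATP-splitting head, had 14.58 and 14.22 in knockout and 14.42 and 14.25 in wild type macrophages. The 2 subunits of the head thus overlapped between the groups, with log2 changes of 0.01 ± 0.24 and 0.07 ± 0.20. Atp6v1d, the rotor shaft, had 13.25 and 12.94 in knockout and 13.05 and 13.16 in wild type macrophages (log2 change -0.01 ± 0.19). Atp6v1e1, of the outer stalks, had 15.17 and 15.07 in knockout and 15.11 and 14.85 in wild type macrophages (log2 change 0.14 ± 0.19). Neither separated the groups. Atp6v1c1, which joins stalk and membrane sector, had 13.32 and 13.09 in knockout and 13.09 and 12.92 in wild type macrophages. Atp6v1h, which regulates coupling of the sectors, had 14.26 and 14.04 in knockout and 13.86 and 13.98 in wild type macrophages. These 2 had both knockout values above the wild type values by a narrow margin, with log2 changes of 0.20 ± 0.19 and 0.23 ± 0.18.

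The accessory proteins of the pump followed the same course. Atp6ap1 had log2 intensities of 14.23 and 14.15 in knockout and 14.10 and 14.00 in wild type macrophages (log2 change 0.14 ± 0.17). Atp6ap2, also known as the prorenin receptor, had 14.68 and 14.51 in knockout and 14.52 and 14.61 in wild type macrophages (log2 change 0.03 ± 0.18). The first did not overlap and the second did. Over the 12 measured of 15 listed pump genes, 10 had a higher and 2 a lower mean, the log2 changes ran from -0.05 to 0.25 with a median of 0.09, and all 12 intervals lay within -1 and 1. Over the 17 hydrolases and other soluble proteins, 11 had a higher and 6 a lower mean, and the median log2 change was 0.05.

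**Figure D3:**
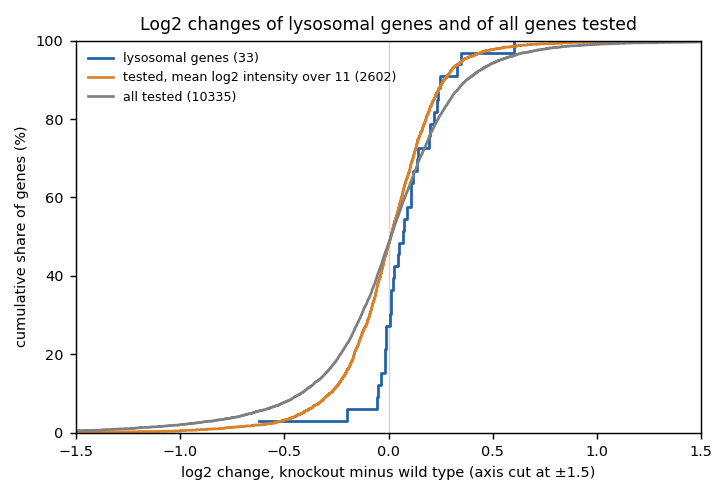
Cumulative share of genes (vertical axis, percent) by log2 change between knockout and wild type (horizontal axis), for the 33 lysosomal genes, the 2602 genes tested with a mean log2 intensity over 11 and all 10335 tested. The lysosomal curve is the steepest near 0, with 29 of its 33 genes within 0.25 of it.

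Several probes gave a second look at 14 of the genes. Of these, 4 (Atp6v1c1, Glb1, Gusb and Lipa) had log2 changes of one sign on all kept probes and 10 had both signs. The second probe of Glb1 was dim, as described above, and no agreement is read from its sign. Some of the disagreement was small: the 4 probes of Atp6ap2 ran from -0.09 to 0.03, the 3 of Smpd1 from -0.06 to 0.04 and the 2 of Psap from -0.01 to 0.01. The 2 probes of Atp6v1h gave -0.26 and 0.23, and with the mean of both the log2 change was -0.01 rather than 0.23. All 4 probes of Gusb were higher in the knockout, from 0.13 to 0.42. The 4 probes of Atp6v0d1 ran from -0.36 to 0.09 and the 5 of Lamp2 from -0.37 to 0.00. For Lamp2, the 2 probes annotated to one transcript gave -0.20 and -0.37, and the 3 annotated to another gave -0.27, -0.03 and 0.00, so neither transcript was set apart from the other beyond the spread of its probes.

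The kept probes of Npc1 ran from -1.36 to 0.45. Its 3 probes annotated to the reference transcript gave log2 changes of 0.35, 0.17 and 0.45, all higher in the knockout. A probe annotated to another transcript record had log2 intensities of 5.57 and 5.27 in knockout and 6.84 and 6.72 in wild type macrophages. It stood above background on both wild type arrays and on neither knockout array. Its wild type mean was 1.22-fold above the mean level of the dimmest probe above background on each knockout array, with no error counted. This probe was kept only through the wild type arrays, where it was higher, so no test is given for it and no difference is concluded. The remaining kept probe of Npc1 gave -0.13 ± 0.36. With the mean of all its kept probes in place of the brightest, the log2 change of Npc1 was -0.11 rather than 0.35. The sources used here do not give which part of the Npc1 transcripts these dim probes read.

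**Figure D4:**
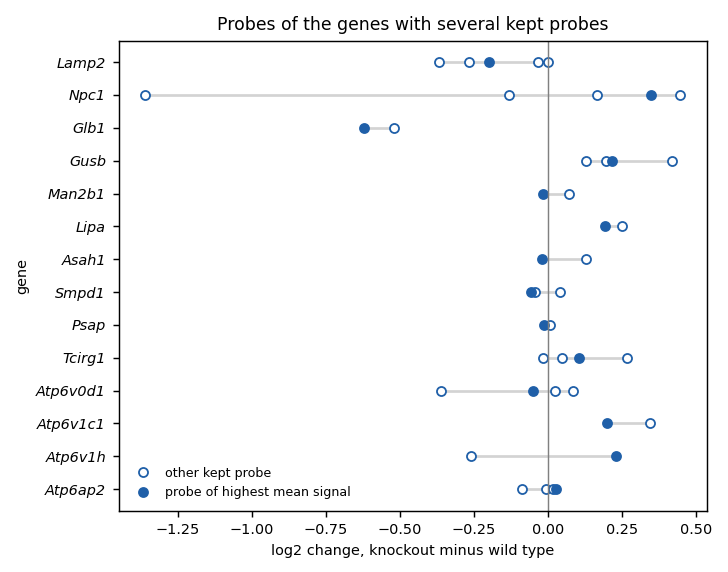
Log2 change between knockout and wild type of each kept probe of the 14 lysosomal genes with several kept probes; filled points are the probes of highest mean signal that stand for the genes. Most probes lie within 0.5 of 0, and the point farthest from it is a dim Npc1 probe at -1.36.

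Further genes of the pathway, outside the list of 37, gave 0 of 78 measured genes passing the limma test, where 0.0968% of all genes tested passed. With an unadjusted p under 0.05 there were 4 (5.13%), namely Atp6v1g2, Gnptab, Rragd and Mitf, against 9.35% of all genes tested. Mitf was kept only through the group in which it was higher, and without it there were 3 of 77 (3.90%). Of 22 measured hydrolases and cofactors (36 listed), 12 had a higher and 10 a lower mean, with a median log2 change of 0.04. The smallest p-values there belonged to Gm2a, the activator of ganglioside breakdown, with 14.24 and 14.28 in knockout and 13.90 and 13.75 in wild type macrophages, and to Hyal2, a hyaluronidase (log2 change 0.40 ± 0.19). Of 23 measured lysosomal membrane proteins (27 listed), 14 had a higher and 9 a lower mean, with a median of 0.13. Slc29a3, a nucleoside transporter, had 11.74 and 12.21 in knockout and 11.54 and 11.38 in wild type macrophages. Over all genes tested, 51.7% had a higher mean and the median was 0.01.

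Of the other pump subunits, 4 of 10 listed were measured. Atp6v1g2, an alternative stalk subunit, had log2 intensities of 9.23 and 9.30 in knockout and 8.47 and 8.62 in wild type macrophages. Its log2 change of 0.71 ± 0.17 did not pass (limma adjusted p = 0.365), although the groups lay well apart. Atp6v1g1, the widely expressed form of that subunit, had a log2 change of 0.41 ± 0.21, and Atp6v0a2 and Atp6v0a1 gave 0.04 and -0.05.

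Delivery of hydrolases to the lysosome depends on mannose 6-phosphate tags and their receptors. Of 17 measured delivery genes (17 listed), 14 had a higher mean (82.4%, against 51.7% of all genes tested) and 3 a lower one, with a median log2 change of 0.13. This direction was not counted under other alignments of the arrays. Alignment by the median of all probes moved the median of all genes to -0.33, a larger shift than that 0.13. In 8 of the delivery genes both knockout values were higher, and in 1 both were lower, where 20.8% of all genes tested lay above and 19.1% below in this way. Gnptab, part of the enzyme that attaches the tag, had log2 intensities of 9.96 and 9.58 in knockout and 9.28 and 9.003 in wild type macrophages (log2 change 0.63 ± 0.22, limma adjusted p = 0.491). Sort1, the sorting receptor sortilin, had a log2 change of 0.36 ± 0.17 and Igf2r, the large mannose 6-phosphate receptor, of 0.28 ± 0.18. Both had non-overlapping groups and neither passed.

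The MiT factors and their upstream control gave 12 measured of 18 listed genes, 6 with a higher and 6 with a lower mean, and a median log2 change of -0.02. Tfe3, one of the factors, had log2 intensities of 10.33 and 10.22 in knockout and 10.71 and 10.09 in wild type macrophages, with overlap. Mitf stood above background on neither knockout array and had 5.92 and 6.10 there, against 6.93 and 6.61 in wild type macrophages, where it was above background on both arrays. Its wild type mean was 1.21-fold above the mean level of the dimmest probe above background on each knockout array, with no error counted. Mitf was kept only through the wild type arrays, where it was higher, so no difference is concluded from it. Rragd, a GTPase that ties nutrient sensing on the lysosome to these factors, had 9.18 and 9.11 in knockout and 8.67 and 8.64 in wild type macrophages (log2 change 0.49 ± 0.17, limma adjusted p = 0.487).

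Markers of macrophage subsets were set beside these values. The 8 measured of 9 listed markers of large peritoneal macrophages had a lower mean in the knockout, with a median log2 change of -0.98. Their wild type arrays had a median absolute gap of 1.20, larger than that change, and their knockout arrays one of 0.44. Icam2, Gata6 and Cd9 overlapped between the groups. Of the 8 markers, 0 passed the limma test and 5 (62.5%) had an unadjusted p under 0.05, against 9.35% of all genes tested, 5.1% lower in the knockout. Their summed normalized intensity was 35490 and 29730 in knockout and 36240 and 50050 in wild type macrophages, with WT 2 the highest array. Much of each sum was Cd9, the brightest of them, with log2 intensities of 14.70 and 14.41 in knockout and 14.60 and 14.58 in wild type macrophages. Among the small peritoneal macrophage markers, Ccr2 and Cd226 were not above background on any array, and the 5 measured summed to 21120 and 21200 in knockout and 34240 and 38430 in wild type macrophages. Fn1 and Retnla made up most of that sum, and Itgax of the same list went the other way, with log2 intensities of 9.57 and 9.54 in knockout and 6.88 and 8.09 in wild type macrophages. The eosinophil markers and the mesothelial markers that had a probe were not above background on any array. The 4 measured of 7 listed B cell markers summed to 2062 and 3492 in knockout and 3783 and 4584 in wild type macrophages. Of these, Cd22 went the other way, with log2 intensities of 9.36 and 9.26 in knockout and 8.55 and 8.22 in wild type macrophages. The 3 measured of 7 listed neutrophil markers summed to 2612 and 2250 in knockout and 1036 and 2642 in wild type macrophages, with Ngp, Camp, Retnlg and Mpo not above background on any array. Most of that sum was S100a8. Ltf had log2 intensities of 7.94 and 8.69 in knockout and 6.90 and 5.73 in wild type macrophages, where it was above background on 1 array. Of the T and NK cell markers, Cd3d, Nkg7 and Klrb1c were not above background on any array, and Cd3e and Cd3g on no more than 1. Only Lat was measured, at normalized intensities (not log2) of 830.2 and 625.2 in knockout and 116.1 and 262.4 in wild type macrophages. The 3 measured mast cell markers (Cpa3, Cma1 and Kit) summed to 185.7 and 365.9 in knockout and 317.7 and 434.4 in wild type macrophages. All 3 were dim, each above background on 1 knockout array, and Kit went the other way (log2 change 0.17 ± 0.31). Mcpt4 and Tpsb2 were not above background on any array. The 2 measured dendritic cell markers summed to 464.9 and 341.1 in knockout and 435.6 and 792.7 in wild type macrophages. The part of such differences in the values of the lysosomal genes was not tested.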

How the data were processed

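Labelled cRNA was hybridised to Illumina MouseWG-6 BeadChips and read out in GenomeStudio, per the series text. The deposited signal table holds average bead intensity per probe, linear and not normalized between arrays, with a detection p-value per probe and array, per the file headers. The authors also deposited intensity values after their own quantile normalization. The GenomeStudio version, and any background subtraction before export, are not given in the sources used here.

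The signals went through neqc (limma 3.58.1, R 4.3.3), which corrects background with the detection p-values, adds an offset of 16, quantile normalizes and takes log2. The platform annotation paired 34885 of 45281 probes with 1 symbol, 18 with several and 10378 with none, and 34807 matched RefSeq genes (GRCm38.p6), used for names, chromosomes and promoter windows. With 14881 probes kept, 10335 genes or unnamed probes were tested by lmFit and eBayes, knockout minus wild type, with Benjamini-Hochberg adjustment over all of them. Errors are moderated standard errors. The number of arrays limits the precision. The pipeline was tested on simulated data.

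Every measured gene of the list is given with its value on each array. Of each further list, counts are given, and up to 3 genes with the smallest p, with others chosen after their values were seen. The genes and lists were chosen with earlier results of these data known. Alternatives covered background correction, normalization, the authors' values, the filter, the choice of probe, the variance model, a replicate block and leaving out each array.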

Additional observations from a re-analysis of the deposited data

How the results depend on the processing

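None of the lysosomal genes passed under any of the 16 other settings run, and 0 to 3 had a limma unadjusted p under 0.05. Their median log2 change, 0.07, was -0.23 with arrays aligned by the median of all probes (all genes -0.33), 0.14 with that scaling over the kept probes (chosen after seeing the data, all genes 0.04), 0.0513 with the mean of the kept probes of a gene and 0.0445 with every kept probe on its own, and lay between 0.0438 and 0.115 when single arrays were left out. The number within 0.25 of 0, 29 of 33 beside 62.7% of all genes, was 20 with either alignment by medians. All genes then gave 34.9% with all probes and 61.3% with the kept ones. Without single arrays the number was 21 to 27, beside 51.5% to 60.5% of all genes. Over all genes, the 10 calls became 17 without background correction, 201 with median scaling over all probes (14 higher and 187 lower, against 5 and 5), 6 without the filter on dim probes, 4 for probes detected on all 4 arrays, 16 with an intensity trend, and 5 to 12 without single arrays, which leave fewer samples. The cause of the other shifts was not tested. With the replicate number as a block, 13 genes were called over all genes and 0 of the lysosomal genes, whose median stayed at 0.07; the deviations of same-numbered arrays had a correlation of -0.00212 across genes, and only the numbers link these arrays. Leaving out an array assumes that the lone array of a group varies like the other group. With 2 arrays per group, the intervals given above describe the precision of each change and are not a limit of detection.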
